A study of Homo sapiens with 6 samples.

Results

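Glutathione S-transferases were followed in HepG2-hCAR, a single-cell clone of HepG2, an established line from a human liver carcinoma, with a lentiviral insert from which doxycycline induces the full-length cDNA of human CAR, the constitutive androstane receptor (gene NR1I3). The genes were chosen by name: GSTA1, GSTA4, GSTM4, GSTO1, GSTZ1, GSTK1, MGST1, MGST2 and MGST3, of which 8 were among the 11456 genes of the expression table. GSTA1 was not analysed here. RNA was sequenced from 3 libraries of cells given vehicle and 3 libraries of cells given doxycycline, a tetracycline antibiotic, at 1 µg/ml, all at 72 h. Every library came from the same clone, so the controls carried the inducible cDNA too. No library had doxycycline without it, so the receptor and the antibiotic cannot be told apart as sources of a change. Whether libraries of 1 group were separate cultures is not in the labels, and p-values then measure only the spread between these libraries, which may be technical.

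Glutathione S-transferases join the tripeptide glutathione to electrophilic compounds, which makes them more soluble and ready for export. The soluble enzymes form classes named by Greek letters, and the kappa class sits in mitochondria and peroxisomes. The microsomal enzymes MGST1, MGST2 and MGST3 are a separate family of membrane proteins, related to the enzymes that make leukotrienes and prostaglandin E2. In liver the transferases belong to the conjugating phase of drug metabolism, and CAR is a nuclear receptor of hepatocytes known for switching on genes of drug oxidation, conjugation and export.

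No listed transferase rose with doxycycline, and 3 of the 8 (37.5%) fell: MGST2, GSTM4 and GSTO1. The mean FPKM, the fragments of a gene per unit of transcript length and per mapped fragment, fell by 34.4% for MGST2. It fell by 32.0% for GSTM4 and fell by 14.9% for GSTO1. The test was limma on log2(FPKM + 1), with the Benjamini-Hochberg adjusted p below 0.05 over the 10469 genes whose mean FPKM reached 1, and all 8 transferases passed that filter. In the same test 28.8% of all genes were called in either direction, and 13.6% were called lower. At the looser limit of an unadjusted p below 0.05 there were 4 lower transferases and 0 higher ones, GSTA4 being the addition. The 28.8% and 13.6% are for the adjusted p, so they cannot be set beside these counts. The median log2 fold change was -0.16 for the 8 genes and 0.01 for all genes tested. Vehicle and doxycycline libraries did not overlap in 4 of the 8 transferases, all 4 lower with doxycycline. Among all genes tested 47.1% had no overlap, and 22.3% had no overlap and were lower.

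NR1I3 mRNA, which checks the labels, was at 3.24 ± 0.290 FPKM with vehicle and 321 ± 8.51 FPKM with doxycycline (mean ± SD over 3 libraries, here and wherever ± is used). The FPKM values of a library summed to 204318 to 209372, and no counts were used, so the depth behind a value is unknown. All 12 hepatocyte markers looked for were listed, among them ALB, APOB and AHSG, with 9 of the 12 called lower. Their summed level was 2161 to 2325 FPKM with vehicle and 899 to 907 FPKM with doxycycline. APOB, the highest of them by mean, was at 819 ± 23.6 FPKM with vehicle and 444 ± 41.7 FPKM with doxycycline. ALB was at only 1.87 ± 0.0837 and 0.373 ± 0.0951 FPKM. Of markers of other cells, 3 of 5 for bile duct, 1 of 6 for stellate cells or fibroblasts, 0 of 5 for endothelium, 3 of 6 for leukocytes and 2 of 3 for erythroid cells were listed, and the rest, PTPRC, CDH5 and COL1A1 among them, were not analysed here. The summed leukocyte markers, nearly all of it LYZ, were at 544 to 586 FPKM with vehicle and 263 to 277 FPKM with doxycycline, while CD14, which was not tested, was at 0.0578 ± 0.0256 and 1.92 ± 0.0768 FPKM. The summed bile duct markers were at 239 to 248 and 264 to 267 FPKM, with KRT19 called higher (90.8 ± 2.97 to 134 ± 2.37 FPKM) and EPCAM and SOX9 called lower. The stellate cell marker PDGFRB was called higher (0.856 ± 0.0957 to 1.43 ± 0.0327 FPKM), and the erythroid markers HBA1 and HBA2 were called lower, with a summed level of 5.10 to 8.06 and 2.13 to 4.15 FPKM. The part of these shifts in the changes of the transferases was not tested. In such bulk RNA of 1 clone, fewer cells that express a gene and less of its RNA per cell cannot be told apart. FPKM is a share of a library, so a fall is a fall relative to other transcripts.

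**Figure D1:**
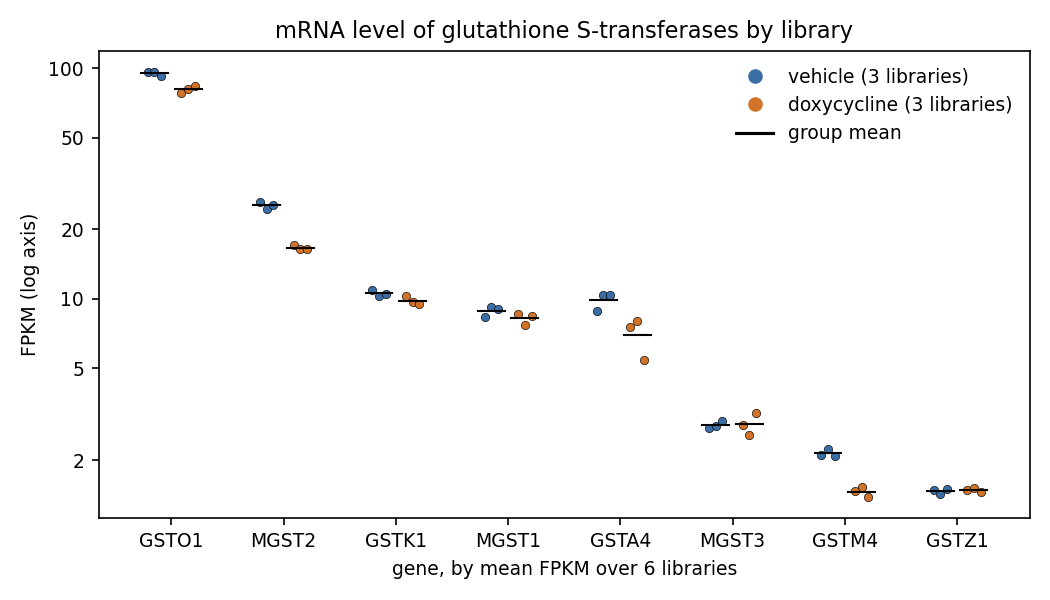
FPKM of the 8 listed glutathione S-transferases in each library on a log axis, with vehicle in blue, doxycycline in orange and the group mean as a black line. GSTO1 is the highest in every library, and the groups are apart for GSTO1, MGST2, GSTA4 and GSTM4.

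The levels spanned a wide range, and FPKM, being scaled to length, lets them be set side by side. GSTO1 was the highest in every library and ranked 283 of the 11456 genes by mean FPKM. MGST2 came next. GSTK1, GSTA4 and MGST1 formed a middle group. In vehicle libraries GSTK1 was at 10.3 to 10.9, GSTA4 at 8.87 to 10.4 and MGST1 at 8.33 to 9.21 FPKM, so that GSTA4 overlapped both of the others and GSTK1 lay above MGST1. With doxycycline GSTK1 (9.47 to 10.3 FPKM) again lay above MGST1 (7.68 to 8.59 FPKM), and MGST1 overlapped GSTA4 (5.45 to 8.01 FPKM). At the low end GSTM4 lay above GSTZ1 in every vehicle library, at 2.09 to 2.25 against 1.43 to 1.50 FPKM. With doxycycline the pair overlapped, at 1.39 to 1.53 FPKM for GSTM4 and 1.46 to 1.51 FPKM for GSTZ1.

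The microsomal family held the most changed transferase. MGST2, a membrane enzyme that can also make leukotriene C4, is at 140586922 to 140661899 of chromosome 4, plus strand, in GRCh37 (ENSG00000085871). It was at 26.3, 24.5 and 25.4 FPKM in vehicle replicates 1 to 3 and at 17.1, 16.4 and 16.4 FPKM in doxycycline replicates 1 to 3. Every doxycycline library was below every vehicle library, and the spread inside a group was small beside the gap. The means were 25.4 ± 0.913 and 16.7 ± 0.408 FPKM, a 1.53-fold fall (log2 fold change -0.58, SE 0.04, 95% interval -0.68 to -0.49, limma adjusted p = 1.9e-04). Among the 1419 genes called lower, whose median log2 fold change was -0.32, 22.7% fell further than MGST2.

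Its relatives did not pass the test. MGST1, an enzyme of the endoplasmic reticulum and the outer mitochondrial membrane that also reduces lipid peroxides, was at 8.33, 9.21 and 9.05 FPKM with vehicle and at 8.59, 7.68 and 8.44 FPKM with doxycycline. The groups of MGST1 overlapped, and the 95% interval of its log2 fold change was -0.24 to 0.05 (adjusted p = 0.283). MGST3, a further microsomal glutathione transferase and peroxidase, was at 2.77, 2.81 and 2.96 FPKM with vehicle and at 2.85, 2.57 and 3.21 FPKM with doxycycline. The doxycycline libraries of MGST3 spanned those of vehicle, and the interval of the log2 fold change was -0.17 to 0.18 (adjusted p = 0.948). A fall as large as that estimated for MGST2 lies outside both intervals.

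Ratios of 2 genes within a library do not depend on how the library was scaled. The ratio of MGST1 to MGST2 was 0.316, 0.376 and 0.356 in the vehicle libraries and 0.501, 0.468 and 0.514 in the doxycycline libraries, with no overlap. The ratio of MGST2 to MGST3 went the other way, from 8.94 ± 0.489 to 5.84 ± 0.648, also with no overlap. The exact two-sided permutation test gave p = 0.1 for both, which is the lowest it can reach with 3 libraries in each group, and 0.15 after adjustment over the 3 pairs tested. The ratio of MGST1 to MGST3 was 3.11 ± 0.141 with vehicle and 2.88 ± 0.213 with doxycycline, and the groups overlapped (exact permutation p = 0.2, adjusted 0.2). The mRNA of the 3 genes together was 37.1 ± 0.529 FPKM with vehicle and 27.8 ± 0.987 FPKM with doxycycline. This sum was not tested.

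**Figure D2:**
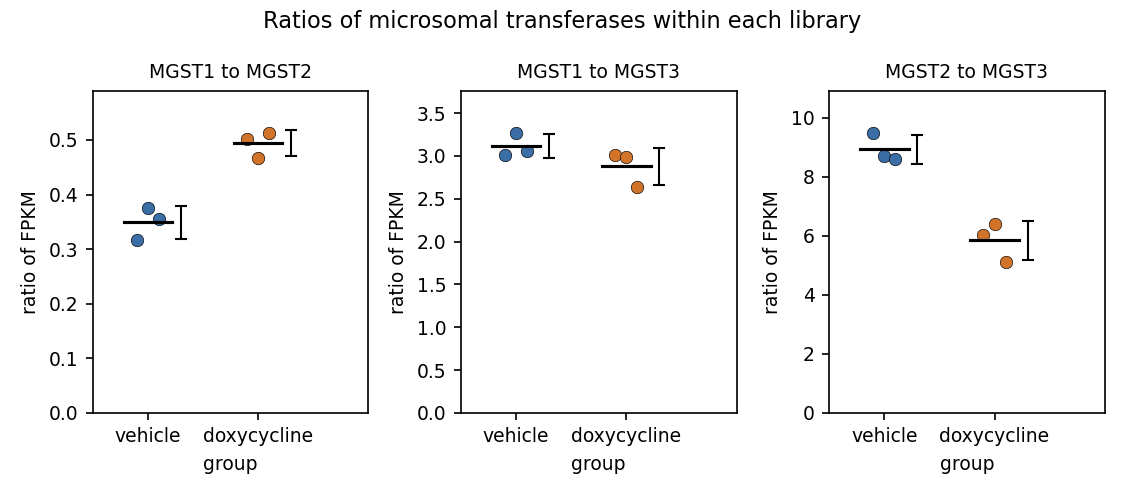
Ratios of FPKM between the microsomal transferases within each library, with the group mean as a line and the SD (n = 3) as a bar beside it. The ratios that hold MGST2 are apart between the groups, and those of MGST1 to MGST3 overlap.

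Among the soluble enzymes GSTO1 and GSTM4 fell. GSTO1, the omega class enzyme that reduces dehydroascorbate and methylated arsenic rather than mainly conjugating, lies on chromosome 10 at 105995114 to 106027217 on the plus strand of GRCh37 (ENSG00000148834). It was at 96.2, 96.2 and 92.8 FPKM with vehicle and at 78.2, 81.1 and 83.3 FPKM with doxycycline. All doxycycline libraries were lower, by a small margin relative to the level. The means were 95.1 ± 1.97 and 80.9 ± 2.54 FPKM (log2 fold change -0.23, SE 0.03, 95% interval -0.31 to -0.15, limma adjusted p = 0.00357). GSTO1 made up 60.8% ± 0.745 of their summed FPKM with vehicle and 62.9% ± 1.61 with doxycycline. The sum of all 8 was 157, 157 and 155 FPKM in the vehicle libraries and 128, 129 and 129 FPKM in the doxycycline libraries. Without GSTO1 the sum was 61.2 ± 0.639 and 47.6 ± 1.78 FPKM. MGST2 went from 16.3% ± 0.604 to 13.0% ± 0.390 of the summed FPKM.

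GSTM4, a mu class enzyme, lies on chromosome 1 at 110198703 to 110217458 on the plus strand of GRCh37 (ENSG00000168765), in the cluster of mu class genes. It was at 2.12, 2.25 and 2.09 FPKM with vehicle and at 1.47, 1.53 and 1.39 FPKM with doxycycline. The groups were well apart, at 2.15 ± 0.0843 and 1.46 ± 0.0683 FPKM, a 1.47-fold fall of the mean. On the log2(FPKM + 1) scale, which shrinks changes of weakly expressed genes, the log2 fold change was -0.36 (SE 0.05, 95% interval -0.48 to -0.23, limma adjusted p = 0.00368). Mu class genes are close copies of each other: of the distinct stretches of 100 bases in the GENCODE 29 coding transcripts of GSTM4, 7.77% also occur in transcripts of other genes, most in GSTM2. For the other 7 listed transferases this share was 0%. How the authors assigned reads that fit several copies is not given in the sources used here, so the level of GSTM4 is less certain than the others. GSTM3, a neighbour on the other strand, was at 1.20 ± 0.102 and 1.11 ± 0.0390 FPKM (adjusted p = 0.483).

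GSTA4 did not pass the test. This alpha class enzyme, known for conjugating the lipid peroxidation product 4-hydroxynonenal, lies on chromosome 6 at 52842746 to 52860176 on the minus strand of GRCh37 (ENSG00000170899). It was at 8.87, 10.4 and 10.4 FPKM with vehicle and at 7.56, 8.01 and 5.45 FPKM with doxycycline. The groups did not overlap, but doxycycline replicate 3 stood well below the other doxycycline libraries, and the coefficient of variation there was 19.5%, the highest of any of the 8 genes in either group. The log2 fold change was -0.46 (SE 0.14, 95% interval -0.79 to -0.12), with a limma p of 0.0162 and an adjusted p = 0.0544. Without doxycycline replicate 3 the log2 fold change was -0.31 (adjusted p = 0.0568).

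GSTK1 and GSTZ1 did not pass the test. GSTK1, the kappa class enzyme, was at 10.9, 10.3 and 10.5 FPKM with vehicle and at 10.3, 9.71 and 9.47 FPKM with doxycycline. The GSTK1 groups overlapped slightly (log2 fold change -0.10, 95% interval -0.21 to 0.01, adjusted p = 0.169). GSTZ1, the zeta class enzyme that isomerizes maleylacetoacetate in tyrosine breakdown, was at 1.48, 1.43 and 1.50 FPKM with vehicle and at 1.49, 1.51 and 1.46 FPKM with doxycycline. All 6 libraries of GSTZ1 lay between 1.43 and 1.51 FPKM, and the interval of its log2 fold change was -0.10 to 0.12 (adjusted p = 0.890).

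**Figure D3:**
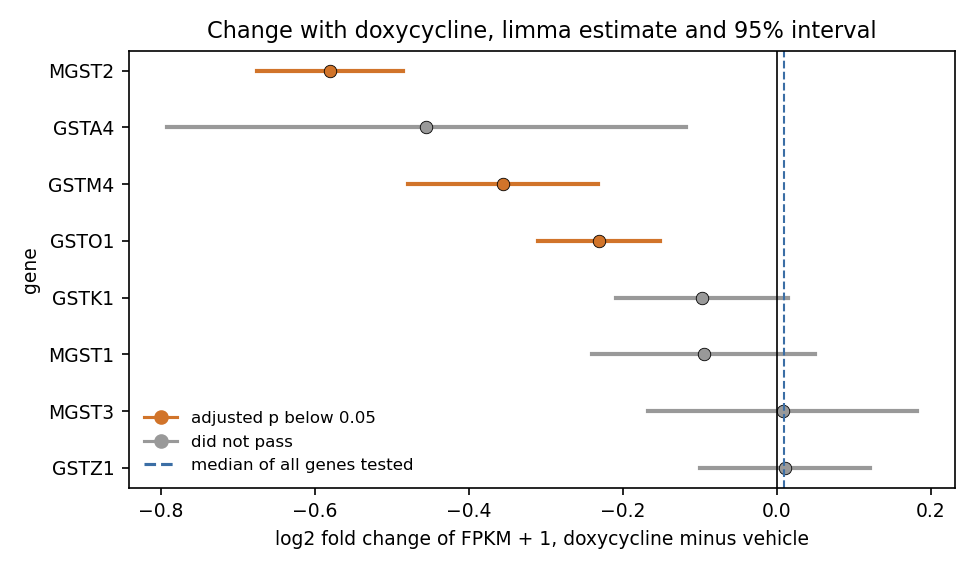
Log2 fold change of FPKM + 1, doxycycline minus vehicle, for each listed transferase with its limma 95% interval. Genes with an adjusted p below 0.05 are orange and others gray, and the dashed line is the median of all genes tested (0.01). The intervals of MGST2, GSTA4, GSTM4 and GSTO1 lie wholly below 0, although GSTA4 did not pass after adjustment.

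The DNA before the start sites was searched for the core of the antioxidant response element, TGACNNNGC, which NRF2 binds, and for hexamers bound by nuclear receptors such as CAR, on both strands of the 250 bases before each RefSeq start (GRCh38.p14). Of the 8 genes 7 matched an entry, with 9 windows because MGST1 has 3, and the other gene is MGST2. The core was found in GSTO1 at 2 places and in GSTA4 at 1 place, and in 10.9% of all 35116 windows. These matches are shown because both genes had groups that did not overlap; capitals mark the core, with 10 bases on each side:
GSTO1, chr10:104254656-104254684, plus strand: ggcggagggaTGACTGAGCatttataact
GSTO1, chr10:104254721-104254749, plus strand: cgagatgcttTGACACAGCcccttaagat
GSTA4, chr6:52995275-52995303, minus strand: ccgggaccgcTGACCTGGCgctttgtgcg
In GSTO1 the cores begin 226 and 161 bases before the start, and in GSTA4 the core ends on the last base before it. Of the 250 bases, 182 in GSTO1 and 94 in GSTA4 lie in exons that GENCODE 29 places on the same strand.

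The hexamer AGGTCA was found in GSTA4 alone among the 9 windows, on the opposite strand and inside the printed core, and in 12.1% of all windows. AGTTCA was found in GSTK1 alone, and in 8.8% of all windows. Direct repeats of AGGTCA and of AGTTCA with 4 bases between the copies have the spacing that CAR with its partner RXR is known to bind. Exact copies of these repeats were in none of the 9 windows and in 0.0142% and 0.0057% of all windows. Imperfect repeats were not looked for, so this absence says little. None of these letters were in the window of GSTM4, which is shown as that of a gene that fell, up to its earliest exon in GENCODE 29 (232 bases, 60.8% G or C, 16 CpG):
GSTM4, chr1:109655849-109656080, plus strand: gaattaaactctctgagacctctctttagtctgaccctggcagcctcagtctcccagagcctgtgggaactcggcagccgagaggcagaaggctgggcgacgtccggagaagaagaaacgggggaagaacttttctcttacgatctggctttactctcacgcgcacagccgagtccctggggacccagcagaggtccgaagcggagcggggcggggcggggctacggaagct
A match is a description of letters, not a binding site, and these windows hold no distal sites.

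Genes near the transferases were compared with them. Within 250 kb of the 8 genes lay 29 other listed genes, of which 26 were tested, 6 were called higher and 1 lower. Over all genes tested 28.8% were called, 15.2% higher and 13.6% lower. Near MGST2 both tested neighbours, RAB33B and NAA15, did not pass. Near GSTM4, CSF1 (0.823 ± 0.144 to 1.89 ± 0.280 FPKM) and CYB561D1 (0.641 ± 0.306 to 1.54 ± 0.124 FPKM) rose and EPS8L3 fell (10.6 ± 0.501 to 8.32 ± 0.347 FPKM). CSF1 and CYB561D1 passed the filter only through their doxycycline libraries, yet they count among the 6 called higher. The CYB561D1 call ended without doxycycline replicate 2 (adjusted p = 0.0537) or 3 (0.0601). FBXO9 rose near GSTA4, SLK near GSTO1, and ISM2 and POMT2 near GSTZ1. POMT2 shares 1 base position with GSTZ1 on the other strand, with a call in 6 of 15 alternatives (adjusted p of 0.0337 to 0.114).

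Of other genes of the family, GSTT1 (7.82 ± 0.996 and 7.16 ± 0.658 FPKM), GSTM3 and GSTCD (4.16 ± 1.78 and 4.34 ± 1.93 FPKM) were listed and tested, and 0 of 3 passed in limma, as at an unadjusted p below 0.05. The other 14 genes looked for were not analysed here.

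Genes that make and regenerate glutathione were looked at beside the transferases. Counts of this and the later lists are to be read beside the shares over all genes tested, 15.2% called higher and 13.6% lower. Of 10 genes of glutathione synthesis and supply 6 rose and 0 fell, with a median log2 fold change of 0.24. The called genes with the largest changes were GCLM, the modifier subunit of the rate-limiting ligase (11.5, 12.3 and 11.5 to 20.6, 21.2 and 19.5 FPKM), SLC7A11, the cystine transporter, and SLC1A5, a glutamine transporter (91.7 ± 0.971 to 116 ± 3.15 FPKM). Of 16 genes of glutathione reduction and peroxide use 6 rose and 4 fell, or 2 fell when any 1 of the 6 libraries was left out. PGD, which supplies NADPH for glutathione reductase, rose from 93.9 ± 8.58 to 135 ± 1.47 FPKM. GPX8, a glutathione peroxidase of the endoplasmic reticulum, rose from 1.16 ± 0.174 to 2.52 ± 0.859 FPKM, with a call in 9 of 15 alternatives (adjusted p of 0.00296 to 0.124).

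Steps after conjugation were split. Of 7 tested genes of conjugate export 4 rose and 2 fell. ABCC2, the canalicular pump for glutathione conjugates, rose 1.85-fold, from 128, 130 and 131 to 240, 238 and 241 FPKM (limma adjusted p = 1.1e-05). ABCC1, a related pump, rose from 18.0 ± 0.433 to 25.6 ± 0.357 FPKM, and ABCG2, a pump of broad specificity, fell from 12.7 ± 0.491 to 8.44 ± 0.256 FPKM. Of 14 tested genes of glutathione and mercapturate breakdown 2 rose and 6 fell, or 3 fell without doxycycline replicate 2 or 3. KYAT1, a cysteine conjugate lyase, fell from 3.63 ± 0.0482 to 1.91 ± 0.259 FPKM, and ANPEP, an aminopeptidase, from 50.8 ± 0.733 to 35.3 ± 0.694 FPKM. GGT5, a gamma-glutamyl transferase, rose from 0.633 ± 0.0747 to 1.53 ± 0.167 FPKM, with only its doxycycline mean above the filter at 1.

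Among other conjugating and detoxifying enzymes more genes rose than fell. Of 11 tested genes of glucuronidation, sulfation, acetylation and methylation 4 rose and 1 fell. With no filter 2 fell, and with a minimum mean FPKM of 5, which leaves fewer genes tested, 2 rose. UGT2B10, listed but under the filter, was at 1.83 ± 0.106 and 0.128 ± 0.111 FPKM. The largest changes among the called genes were those of UGT1A1, UGT1A6 (0.561 ± 0.0838 to 4.24 ± 0.794 FPKM) and the sulfotransferase SULT1C2 (2.13 ± 0.445 to 8.33 ± 0.389 FPKM). UGT1A genes share exons, so their levels are not independent. Of 14 tested enzymes that handle reactive aldehydes, epoxides and glyoxals 6 rose and 2 fell. AKR1B10, an aldo-keto reductase, rose from 19.8 ± 1.59 to 46.5 ± 0.927 FPKM, and PTGR1, which like GSTA4 acts on 4-hydroxynonenal, from 1.84 ± 0.289 to 4.66 ± 0.149 FPKM. EPHX1, microsomal epoxide hydrolase, had the largest log2 fold change of the called genes of this list, 1.42.

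Of the 7 tested genes of phenylalanine and tyrosine breakdown, the pathway of GSTZ1, 2 rose and 2 fell. A list of 7 genes is too small to be set apart from the shares of all genes, 15.2% higher and 13.6% lower. HPD, which acts upstream of GSTZ1, fell from 108 ± 2.44 to 64.2 ± 1.94 FPKM, and PCBD1 rose from 85.8 ± 2.26 to 107 ± 2.76 FPKM. QDPR fell from 8.22 ± 0.644 to 6.41 ± 0.144 FPKM. HGD, the step before GSTZ1, and FAH, the step after it, did not pass (32.8 ± 0.829 and 33.3 ± 0.799 FPKM, and 7.54 ± 0.588 and 6.46 ± 0.0352 FPKM).

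Of 17 regulators known to act on transferase genes 6 rose and 3 fell. The 6 include NR1I3, the induced gene itself, whose rise was set by the design. Besides NR1I3, AHR, the dioxin receptor, rose from 12.8 ± 0.172 to 21.3 ± 1.67 FPKM, and RXRA, the partner of CAR, fell from 5.47 ± 0.0965 to 3.81 ± 0.224 FPKM. NFE2L2, the gene of NRF2, did not pass, and its vehicle libraries were far apart at 26.0, 11.1 and 16.4 FPKM against 27.4, 25.8 and 25.9 FPKM with doxycycline.

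**Figure D4:**
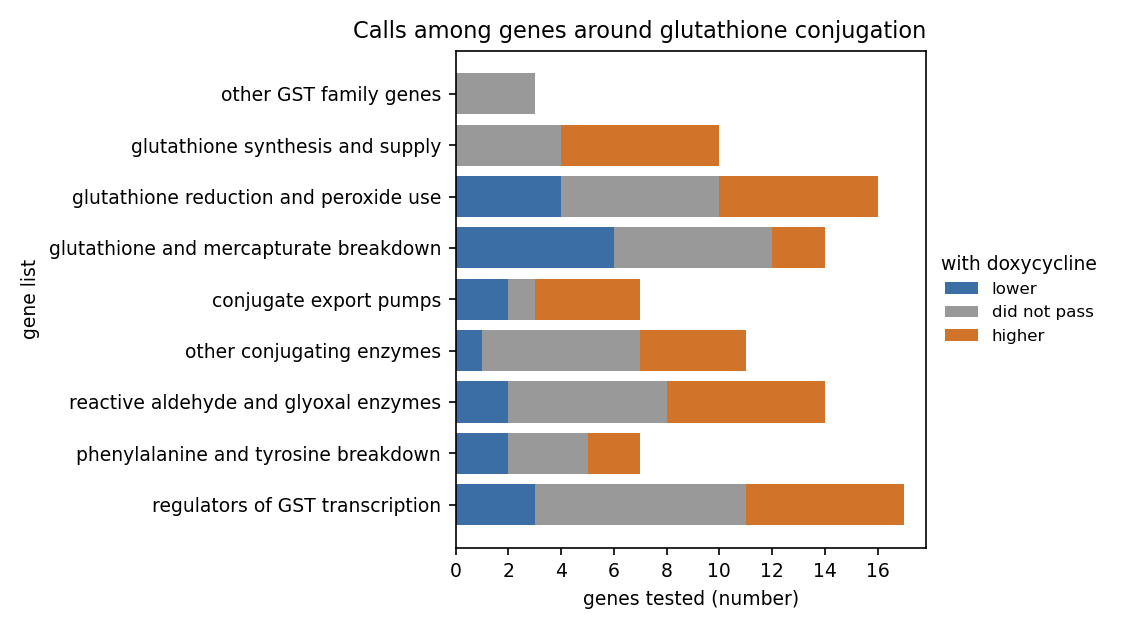
Number of tested genes called lower (blue), not passed (gray) and called higher (orange) with doxycycline in each list around glutathione conjugation. Synthesis and supply has 6 higher and 0 lower genes, and breakdown has 2 higher and 6 lower. Over all genes tested 15.2% were called higher and 13.6% lower.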

How the data were processed

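The deposited values are FPKM per gene and library, computed by the authors. The submitters' processing notes list HISAT2, StringTie, cutadapt and FastQC, with GRCh37 as the build; versions, options and annotation are not given in the sources used here. All 11461 entries are protein-coding; the entry with the highest mean represented each of 5 duplicated symbols. Genes whose mean FPKM over 6 libraries reached 1 were tested with limma 3.58.1 (R 4.3.3) on log2(FPKM + 1), group as the only term, variance trend, two-sided, Benjamini-Hochberg over all genes tested. The fitting code was run on simulated data with normal noise and far fewer changed genes than were called here. That run does not measure the error of these calls. Ratios were tested by exact permutation (scipy 1.17.1). The filter took the mean over both groups. Of the named genes, GGT5, UGT1A4, UGT1A6, CSF1, CYB561D1 and PDGFRB had a vehicle mean below 1 and passed through their doxycycline libraries. ALB and HBA2 had a doxycycline mean below 1 and passed through their vehicle libraries. In every deposited entry the larger group mean was at least 0.50 FPKM.

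The members and lists were chosen with earlier results of these data known, so the lists are described by counts, without set tests. Named genes are all members, at most 3 called genes of each list by absolute log2 fold change, and called neighbours within 250 kb (1 gene that this rule names is not reported here); RAB33B, NAA15, HGD, FAH, NFE2L2, GSTT1, GSTM3, GSTCD, UGT2B10 and the markers with values were added after their values were seen. Promoter sequences are from RefSeq (GRCh38.p14), with no coordinates converted. The alternatives were a replicate block, each library left out in turn, pseudocounts of 0.5 and 0.1, a filter at a mean FPKM of 5 or none, quantile normalization, median-ratio scaling, limma with robust moderation or without the trend, summed entries, and a limit of 0.01 on the adjusted p.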

Additional observations from a re-analysis of the deposited data

How the results depend on the processing

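The calls of MGST2 and GSTO1 held in all 16 alternatives fitted for single genes, over adjusted p of 1.5e-04 to 0.0027 and 0.0024 to 0.0243, and that of GSTM4 in the 15 in which it was tested (0.0020 to 0.0207); a minimum mean FPKM of 5 leaves GSTM4, MGST3 and GSTZ1 untested, so 2 members were then called lower. GSTA4 was lower in all 16 and passed in none (0.0506 to 0.141). GSTK1 and MGST1 passed in none. The log2 fold change of MGST3 changed sign with quantile normalization (-0.00026), without vehicle replicate 1 (-0.0064) and without doxycycline replicate 3 (-0.053 to 0.065 over the libraries left out), and that of GSTZ1 with quantile normalization (-0.0024) and without vehicle replicate 2 (-0.0012 to 0.0186 over the libraries left out); neither was called. With an adjusted p below 0.01 there were 1636 genes called, 875 higher and 761 lower, against 3012, 1593 and 1419, and the same number of members, 3, was called lower. Leaving out 1 library gave 2309 to 2378 genes called.

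With the replicate number as a replicate block 2343 genes were called and 3 members were called lower. Deviations of same-numbered libraries correlated at 0.01, -0.03 and 0.09 for replicates 1, 2 and 3, which gave no clear sign of pairing. Differently numbered libraries ranged from -0.10 (vehicle replicate 1 with doxycycline replicate 3) to 0.08 (vehicle replicate 1 with doxycycline replicate 2). With 3 libraries in each group such small correlations cannot show whether the numbers pair the libraries. Of the 18 counts of pathway lists, 7 moved by over 1.5 times in some alternative, 4 of them with the filter at a mean FPKM of 5: export pumps had 1 lower gene, breakdown 1 higher, other conjugating enzymes 2 higher and regulators 0 lower. The replicate block left 2 lower genes of glutathione reduction. The planned ratio of GSTA1 to GSTA4 was not run. Depth is unknown, so no counting error is given for weakly expressed members such as GSTZ1 and GSTM4.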
